A study of Homo sapiens with 9 samples.

Results

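Cells of HT1080, a line grown from a human fibrosarcoma, that carried methylthioadenosine phosphorylase (MTAP) were compared with and without the MTAP inhibitor MT-DADMe-ImmA. The comparison took 6 of the 9 arrays of the series, chosen by their titles: 3 arrays of MTAP-positive cells without treatment, called untreated here, and 3 arrays of MTAP-positive cells that had received 10 µM MT-DADMe-ImmA for 48 hours before harvest. The other 3 arrays, of untreated MTAP-negative cells, entered the fit and are given as reference levels. All cells were HT1080 grown in DMEM. The series calls the 3 samples of a group biological replicates and numbers them 1 to 3, without saying what separates them, so that the p-values measure only the spread between these arrays. The sources used here do not give the derivation of the MTAP-positive cells, whether they were 1 clone, or whether untreated cells received a vehicle, and 1 dose and 1 time were measured.

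MTAP splits methylthioadenosine, a by-product of spermidine and spermine synthesis, into adenine and methylthioribose-1-phosphate. Adenine returns to the nucleotide pool, and the sugar phosphate is rebuilt to methionine by the methionine salvage pathway. The MTAP gene is lost in many tumours together with its neighbour CDKN2A, and methylthioadenosine that builds up without the enzyme inhibits the arginine methyltransferase PRMT5. MT-DADMe-ImmA is a transition-state analogue that binds the enzyme tightly.

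Values are RMA values on the log2 scale, so that a difference of 1 is a doubling. Changes are inhibitor minus untreated, given with their standard error (SE) from limma, and a gene passed where its Benjamini-Hochberg adjusted p over all 17466 probe sets tested was below 0.05. Same-numbered arrays were paired in the fit. Each of the 9453 genes was read from its probe set of highest mean. The deposited table kept only probe sets that reached 6.64 on at least 3 arrays. Where a group mean lay below 6.64, the change is the difference between array values, and the fold is counted from 6.64 and given as "at least".

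MTAP mRNA itself was present in both groups. It read 11.63, 11.74 and 11.37 on untreated arrays 1, 2 and 3 and 11.21, 11.30 and 11.10 on inhibitor arrays 1, 2 and 3, against a mean of 4.56 in MTAP-negative cells. The inhibitor arrays lay below the untreated ones without overlap, but the change of -0.38 ± 0.20 did not pass (adjusted p = 0.247). In a fit of the 6 arrays alone the same change passed (0.0322), as it did without MTAP-negative array 3 (0.0467). The other MTAP probe set with values changed by -0.24 ± 0.09 (adjusted p = 0.107). The inhibitor acts on the protein, so these values check the MTAP label and not the treatment.

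The 6 arrays had medians between 8.35 and 8.38, and correlations over probe sets ran from 0.956 to 0.979 among untreated arrays, from 0.980 to 0.988 among inhibitor arrays and from 0.942 to 0.981 between the groups. RNA quality was read from the ACTB control probe sets, as the value of the 5' set minus that of the 3' set. It was -1.43 ± 0.45 in untreated and -1.64 ± 0.66 in inhibitor-treated cells (log2, SD, n = 3 each; exact two-sided permutation test p = 0.70; with 3 arrays a group it cannot go below 0.10). On MTAP-negative arrays 1, 2 and 3, which entered the fit, it was -1.81, -2.17 and -3.52. The same difference for GAPDH was -0.27, -0.51 and -1.06 on these arrays and ran from -0.35 to -0.02 on the 6 arrays compared. Of 14 fibroblast and fibrosarcoma markers 10 had values, among them VIM and FN1, with a mean level of 11.74 to 11.87 on untreated and 11.72 to 11.76 on inhibitor arrays. Of these 10, 2 were lower, the tropomyosin TPM2 (-0.42 ± 0.10) and CD44 in 1 probe set. None of 8 liver markers had values, and 2 of 13 epithelial, 3 of 11 blood, 1 of 10 endothelial or smooth muscle and 2 of 10 neural or melanocyte markers did. Of these, LYZ (blood), NEFL and TUBB3 (neural) were lower. TPM2 did not pass without untreated array 1 or 3 or inhibitor array 1, 2 or 3 (adjusted p up to 0.155), NEFL without untreated array 1 or 2 or inhibitor array 1 or 3 (up to 0.0827) and TUBB3 without untreated array 1 or 2 or inhibitor array 1, 2 or 3 (up to 0.121). The mean of the 3 blood markers was 9.50 to 9.92 on untreated and 9.35 to 9.39 on inhibitor arrays, and that of the 2 neural markers 11.67 to 11.94 and 11.10 to 11.26. Their part in the results was not tested.

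With inhibitor, 669 genes were higher and 839 lower, together 1508 of 9453 or 16.0% (7.08% higher and 8.88% lower). In all 1508 the 3 numbered pairs moved the same way, and in 1431 every inhibitor array lay on one side of every untreated array, as in 3288 genes or 34.8% of all genes tested. Most changes were modest: the median size of a change that passed was 1.46-fold, and 93 genes (0.984%) passed with at least 2-fold, 58 higher and 35 lower. Over all genes the median change was -0.02 and the median SE 0.115. The number that passed depended on single arrays. It was 334, 729 and 866 without untreated array 1, 2 or 3, and 249, 494 and 536 without inhibitor array 1, 2 or 3. Without the 3 arrays numbered 1, limma passed 0 genes (1621 at an unadjusted p below 0.05). Without the replicate pairing 1000 genes passed, with this ACTB measure as a covariate 940, and with array weights 3468. All 1508 genes kept their direction in each of these fits. Passing a paired fit favours genes whose 3 pairs agree, and these fits reuse the same arrays. The kept direction therefore follows largely from the selection and is no separate check.

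The largest rise was that of PAEP, which encodes the secreted glycoprotein glycodelin. It read 7.23, 6.78 and 7.82 on the untreated and 9.45, 9.48 and 9.49 on the inhibitor arrays, a change of 2.20 ± 0.22 or 4.59-fold (adjusted p = 0.00260). The inhibitor arrays lay close together and far above the untreated ones, which were spread more widely. TEX19, a gene normally expressed in germ cells, rose by 1.93 ± 0.20 and the antisense transcript PAX8-AS1 by 1.83 ± 0.18. MMP9, the gelatinase B that cuts basement membrane collagen, read 7.36, 6.72 and 7.84 without and 9.40, 9.04 and 8.73 with inhibitor, a rise of 1.75 ± 0.26 or 3.36-fold (adjusted p = 0.00669). APLN, which encodes the peptide hormone apelin, rose from 7.31, 7.07 and 7.40 to 9.11, 8.58 and 8.92, with a gap between the groups that was wider than either (1.61 ± 0.10, adjusted p = 0.00164). SUSD1 rose by 1.60 ± 0.13, and its inhibitor mean of 8.42 lay near the 8.13 of MTAP-negative cells. BEX2, the divergent transcript ITPR1-DT and the histone demethylase gene KDM7A had untreated means below 6.64 and were at least 1.53-fold, 1.76-fold and 1.73-fold higher. On all untreated and MTAP-negative arrays these 3 genes lay below 6.64, so they entered the deposited table through the inhibitor arrays alone. Such a gene can only appear as a rise. Of the 9453 genes, 28 entered in this way and 12 through the untreated arrays alone. JMY, an actin nucleator and p53 cofactor, rose by 1.44 ± 0.30 but did not pass without untreated array 1 or 2 or without any 1 of the inhibitor arrays (adjusted p up to 0.0999). TXNIP and, in 1 of its 3 probe sets, OSMR, a receptor subunit for oncostatin M, complete the 12 largest rises and are described further on.

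Among the largest falls, SLC22A4, a carrier of ergothioneine and carnitine, read 8.25, 8.27 and 7.84 on untreated and 6.01, 6.38 and 5.79 on inhibitor arrays and was at least 2.78-fold lower (adjusted p = 0.00164). SAMD9, an antiviral gene, was at least 1.18-fold lower, and LYZ, which encodes lysozyme, at least 1.63-fold lower. LYZ reached 6.64 on the untreated arrays alone, so it could only appear as a fall. LYZ is a marker of blood cells, and the other blood markers with values, LCP1 and SRGN, did not pass. The long non-coding LINC01963 was at least 2.07-fold lower. FZD1, a Wnt receptor, fell from 8.39, 8.35 and 7.97 to 6.98, 6.67 and 7.03, by 1.35 ± 0.16 (2.54-fold, adjusted p = 0.00405). GDAP1, a mitochondrial outer membrane protein, fell by 1.29 ± 0.11. Both group means of PPP3R1, the calcineurin regulatory subunit, lay below 6.64, so no fold is given. The rest of the 12 largest falls (IFIT1, CCNE2, H2AX, NCAPG and CDCA3) belong to the groups below.

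**Figure D1:**
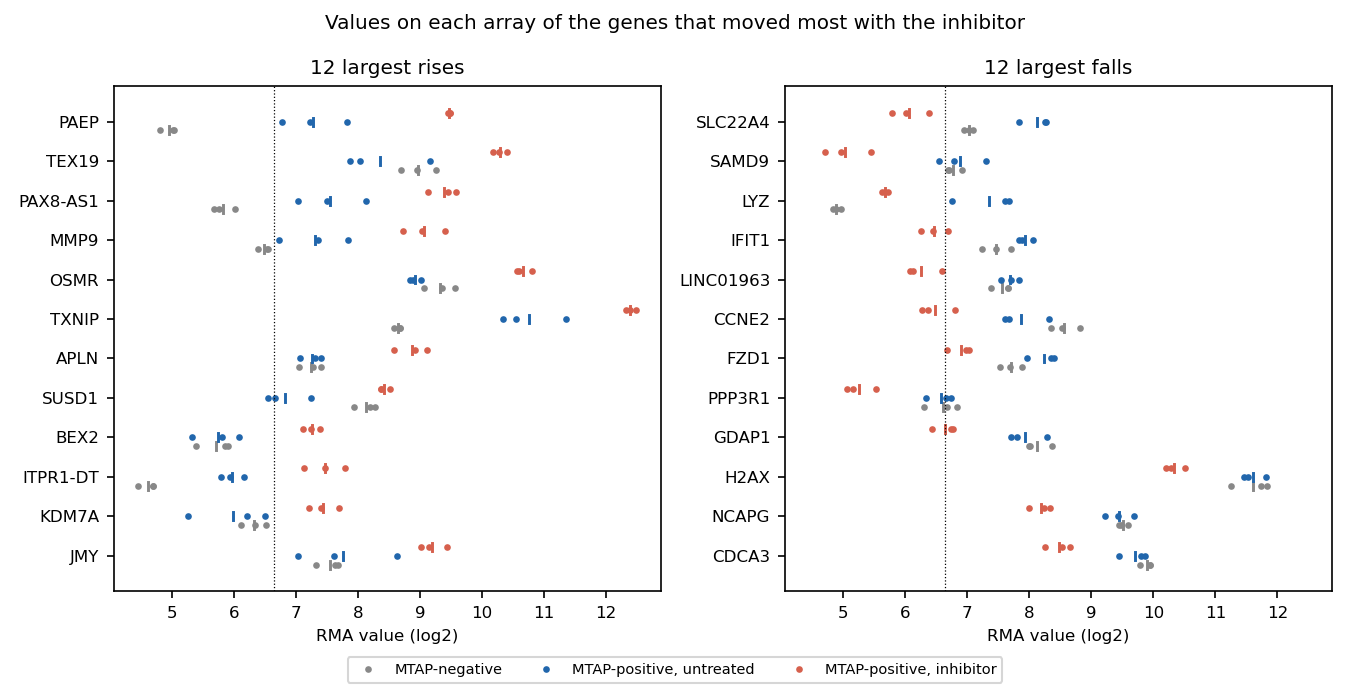
RMA values (log2, horizontal axis) of the 12 genes that rose most (left) and the 12 that fell most (right) on each array, each read from its probe set of highest mean (other probe sets of OSMR fell). Points are arrays, short bars group means and the dotted line the level of 6.64; in every gene shown the red inhibitor points lie apart from the blue untreated points.

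Of the 36 gene lists, that of chromosome segregation held the largest number of genes that passed, and all of these fell. These genes build the spindle and the kinetochores, drive entry into mitosis and finish cell division, and most are made only in cells that pass through G2 and M phase. In RNA from whole cultures, fewer cells in a phase of the cell cycle and less RNA per cell cannot be told apart. Of 68 measured genes of mitosis and the kinetochore, 47 (69.1%) fell and 0 rose (0 also at an unadjusted p below 0.05), beside 8.88% and 7.08% of all genes. Their median change was -0.62, beside -0.02 over all genes, and 67 of the 68 lay below 0.

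Promoters of 2 of the genes that fell most are shown because G2/M genes as a class are known to carry a CHR (cell cycle homology region) near the start and CCAAT boxes upstream, through which the DREAM and MuvB complexes and the factor NF-Y act. CDCA3 encodes a protein that triggers entry into mitosis, and ZWINT a kinetochore protein that holds the ZW10 complex. The sequences run 5' to 3' along the gene from 150 bases before the start to 30 after, in RefSeq's GRCh38.p14, with CHR-like letters (TTTGAA or TTCGAA) and CCAAT, on either strand, in capitals. They lie at chr12:6851257-6851436 on the minus strand for CDCA3 and at chr10:56361230-56361409 on the minus strand for ZWINT.
CDCA3: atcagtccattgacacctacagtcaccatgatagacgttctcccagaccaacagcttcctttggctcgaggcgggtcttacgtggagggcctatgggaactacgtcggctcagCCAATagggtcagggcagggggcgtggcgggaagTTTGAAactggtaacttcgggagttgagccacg
ZWINT: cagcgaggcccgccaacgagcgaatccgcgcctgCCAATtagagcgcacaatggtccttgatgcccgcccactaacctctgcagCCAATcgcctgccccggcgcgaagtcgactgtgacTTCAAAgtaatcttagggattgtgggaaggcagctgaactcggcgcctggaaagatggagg

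CDCA3 read 9.87, 9.80 and 9.44 on untreated and 8.65, 8.52 and 8.26 on inhibitor arrays, a fall of 1.23 ± 0.13 or 2.34-fold (adjusted p = 0.00297). ZWINT went from 10.90, 11.00 and 10.69 to 9.79, 9.81 and 9.53 (-1.16 ± 0.10, adjusted p = 0.00207). In both, the 3 inhibitor arrays lay below the 3 untreated arrays by more than the spread within either group. GTSE1, a microtubule-binding protein of G2 and S phase, fell by 1.15 ± 0.12 and SPC25, a subunit of the NDC80 kinetochore complex, by 1.11 ± 0.10. Further members, chosen after their values were seen because their roles are well known, were the mitotic kinase gene CDK1 (-0.68 ± 0.13), its partner CCNB1 (-0.84 ± 0.14), the polo kinase PLK1 (-0.68 ± 0.10), the kinesin KIF23 (-1.09 ± 0.10) and the proliferation marker MKI67 (-0.69 ± 0.15), all of which passed. The most highly expressed members that did not pass, BUB3 (-0.38 ± 0.11, adjusted p = 0.0577) and PTTG1 (-0.31 ± 0.11, adjusted p = 0.0839), also lay below 0, and BUB3 passed in the 6 arrays alone (0.0323). The count of 47 was 21 and 31 without untreated array 1 or 2 and 17, 28 and 26 without inhibitor array 1, 2 or 3. Among single genes, CDK1, CCNB1, PLK1 and MKI67 did not pass in some of these fits, at adjusted p of up to 0.0761, 0.0532, 0.050 and 0.120 (CDK1 without untreated array 1 or inhibitor array 1, 2 or 3; CCNB1 without untreated array 1; PLK1 without inhibitor array 1; MKI67 without untreated array 1, 2 or 3 or inhibitor array 1, 2 or 3).

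A promoter was given for 7914 of the 9453 genes. Within 250 bases before to 50 after the start, CHR-like letters were found in 16.6% of all 27305 promoters, 11.1% of the genes tested, 16.5% of the lower genes and 9.89% of the higher genes. For CCAAT the shares were 35.7%, 37.3%, 45.4% and 39.2%. Of the mitosis genes that fell, 28 of 40 with a promoter (70.0%) held CHR-like letters, and of the mitosis genes that did not pass, 11 of 17 (64.7%). Both motifs together were in 57.5% and 58.8% of these groups, beside 4.74% of the genes tested. These shares were not tested against each other. In the promoters printed above no match of one motif overlaps a match of the other.

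Condensin and cohesin genes, which compact and hold together chromosomes, had 7 of 19 members lower and 0 higher (0 at an unadjusted p below 0.05). NCAPG, a subunit of condensin I, read 9.22, 9.69 and 9.43 on untreated and 8.0, 8.34 and 8.23 on inhibitor arrays, a fall of 1.26 ± 0.12 (2.39-fold, adjusted p = 0.00238). NCAPH, of the same complex, fell by 0.92 ± 0.13, and NCAPG2, of condensin II, by 0.87 ± 0.11. SGO2, which protects centromere cohesion, fell by 0.73 ± 0.14, but did not pass without untreated array 1 or inhibitor array 1 or 2 (adjusted p up to 0.0792). The abundant SMC4, the ATPase of both condensins, changed by -0.23 ± 0.17 (adjusted p = 0.379), with overlapping groups. The count of 7 was 3 without untreated array 1 and 3 and 4 without inhibitor array 1 or 2.

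Of 13 genes of the nuclear lamina, which lines the inner nuclear membrane, 5 fell and 0 rose (1 at an unadjusted p below 0.05). TMPO, which encodes the lamina-associated proteins LAP2, read 10.71, 10.76 and 10.59 without and 9.82, 9.95 and 9.70 with inhibitor (-0.86 ± 0.10, adjusted p = 0.00405). The other probe set of TMPO, 203432_at, changed by -0.26 ± 0.10 and did not pass (adjusted p = 0.103). The B-type lamin LMNB1 fell by 1.19 ± 0.23 and the A-type lamin LMNA by 0.69 ± 0.14. LMNA passed in 1 of its 5 probe sets, and the others changed by -0.65 to -0.08 without passing. LMNB1 did not pass without untreated array 1 or 3 or inhibitor array 2 or 3 (adjusted p up to 0.0778) and LMNA without untreated array 1 or 2 or inhibitor array 1 or 2 (up to 0.0881). The lamin B receptor LBR changed by -0.15 ± 0.11 and did not pass. The count of 5 was 1, 3 and 2 without untreated array 1, 2 or 3 and 2 without any 1 of the inhibitor arrays.

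Genes of DNA replication fell less broadly than those of mitosis in this count: 23 of 57 (40.4%) were lower and 0 higher (1 at an unadjusted p below 0.05), with a median change of -0.33. The difference between these lists was not tested. RRM2, the subunit of ribonucleotide reductase that limits the supply of deoxynucleotides, read 11.86, 11.98 and 11.51 on untreated and 10.82, 11.06 and 10.41 on inhibitor arrays (-1.02 ± 0.15, 2.03-fold, adjusted p = 0.00642). CDC6, which loads the MCM helicase at origins, went from 8.78, 8.78 and 8.33 to 7.64, 7.96 and 7.30 (-1.0 ± 0.14, adjusted p = 0.00604). In both genes array 3 was the lowest of its group, with and without inhibitor, and all 3 pairs fell. The histone chaperone gene ASF1B fell by 0.96 ± 0.12. MCM10, a replication initiation factor, fell by 0.96 ± 0.15 but did not pass without inhibitor array 1 (adjusted p = 0.0540). The helicase subunits MCM2, MCM3, MCM5, MCM6 and MCM7, noted after their values were seen, had changes of -0.13, -0.12, -0.21, -0.07 and -0.26 and did not pass. The signs of MCM2, MCM3 and MCM6 turned without untreated array 2 (MCM2) or inhibitor array 3 (MCM3 and MCM6). The count of 23 was 10 without untreated array 1 and 8, 11 and 14 without inhibitor array 1, 2 or 3.

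Promoters of replication genes are known for sites of E2F, the factor that RB restrains until S phase. CDC6 is shown because its start region holds such letters. The sequence, from 150 bases before the start to 30 after, is at chr17:40287729-40287908 on the plus strand of GRCh38.p14, with the E2F-like match in capitals.
CDC6: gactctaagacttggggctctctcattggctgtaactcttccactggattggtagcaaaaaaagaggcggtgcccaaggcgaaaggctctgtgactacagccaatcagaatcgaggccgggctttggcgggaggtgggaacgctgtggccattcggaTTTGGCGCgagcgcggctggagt

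E2F-like letters, searched on both strands as TTTCCCGC, TTTCGCGC, TTTGCCGC or TTTGGCGC, were in 3.33% of all promoters, 5.83% of the genes tested, 9.17% of the lower genes and 3.96% of the higher genes. They were in 10 of 22 replication genes that fell (45.5%) and in 11 of 29 that did not pass (37.9%).

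Of 13 G1/S cyclins, kinases and inhibitors 4 fell and 0 rose (0 at an unadjusted p below 0.05). The 4 include SKP2 as read from 203625_x_at (-0.56 ± 0.12). Its other probe set, 210567_s_at, passed as higher (0.41 ± 0.11, adjusted p = 0.0382). CCNE2, the E-type cyclin that starts S phase with CDK2, read 7.60, 8.31 and 7.67 without and 6.36, 6.80 and 6.27 with inhibitor and was at least 2.33-fold lower (adjusted p = 0.00178). The D-type cyclin CCND3 fell by 0.94 ± 0.12 (1.92-fold). CDK4, the kinase of the D-type cyclins, changed by -0.25 ± 0.09 and did not pass (adjusted p = 0.101). Among 15 E2F, RB and MYB regulators 6 fell and 2 rose. MYBL2, which with FOXM1 switches on G2/M genes, read 8.88, 8.97 and 8.64 on untreated and 7.93, 7.90 and 7.68 on inhibitor arrays (-0.99 ± 0.10, 1.99-fold, adjusted p = 0.00238). FOXM1 fell by 0.85 ± 0.11 and TFDP1, the partner of E2F proteins, by 0.69 ± 0.11. RB1 changed by -0.31 ± 0.13, with overlapping groups (adjusted p = 0.139). The 4 G1/S genes were 2 without untreated array 1 or 3 or inhibitor array 1 or 3. The 6 lower regulators were 3 without inhibitor array 1, and the 2 higher ones were 1 or 0 without any 1 of the 6 arrays and 1 without MTAP-negative array 1.

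Of 35 DNA repair and checkpoint genes 11 fell and 0 rose (2 at an unadjusted p below 0.05). The 11 include FANCI, whose probe set 223785_at passed as higher (0.38 ± 0.10). RAD54B, a helicase of homologous recombination, fell from 7.61, 8.32 and 7.91 to 6.97, 7.28 and 6.97 (-0.87 ± 0.12, adjusted p = 0.00504). MSH6, a mismatch repair protein, changed by -0.27 ± 0.09 and did not pass (adjusted p = 0.0874). The count of 11 was 3 without untreated array 1 and 3, 4 and 6 without inhibitor array 1, 2 or 3. Among 17 histone variants and HMG proteins 5 fell and 0 rose (0 at an unadjusted p below 0.05). The 5 include HMGA2 as read from 208025_s_at (-0.42 ± 0.09). Its probe set 1558683_a_at passed as higher (1.56 ± 0.09), and the gene is given no direction further on. H2AX, the histone variant that is phosphorylated at DNA breaks, read 11.81, 11.46 and 11.53 on untreated and 10.51, 10.20 and 10.28 on inhibitor arrays, a fall of 1.27 ± 0.14 or 2.41-fold (adjusted p = 0.00322). HMGB1 changed by -0.33 ± 0.11 and did not pass (adjusted p = 0.0884), but did in the 6 arrays alone (0.0433). The count of 5 was 2 without any 1 of the untreated arrays and 1 without any 1 of the inhibitor arrays.

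p53 targets, which include the CDK inhibitor programme of damaged cells, did not move one way: of 24 members 2 rose and 2 fell (8.33% each). Over all genes the shares were 7.08% and 8.88%. SERTAD1 fell by 0.85 ± 0.11 and the quinone reductase TP53I3 by 0.81 ± 0.10. CCNG1 rose by 0.58 ± 0.10 but did not pass without untreated array 1 or inhibitor array 1 (adjusted p up to 0.0652). GADD45A changed by 0.30 ± 0.09 and did not pass (adjusted p = 0.0655). The 2 that rose were 0 and 1 without untreated array 1 or 2, 0, 1 and 1 without inhibitor array 1, 2 or 3, and 3 and 4 without MTAP-negative array 1 or 2.

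**Figure D2:**
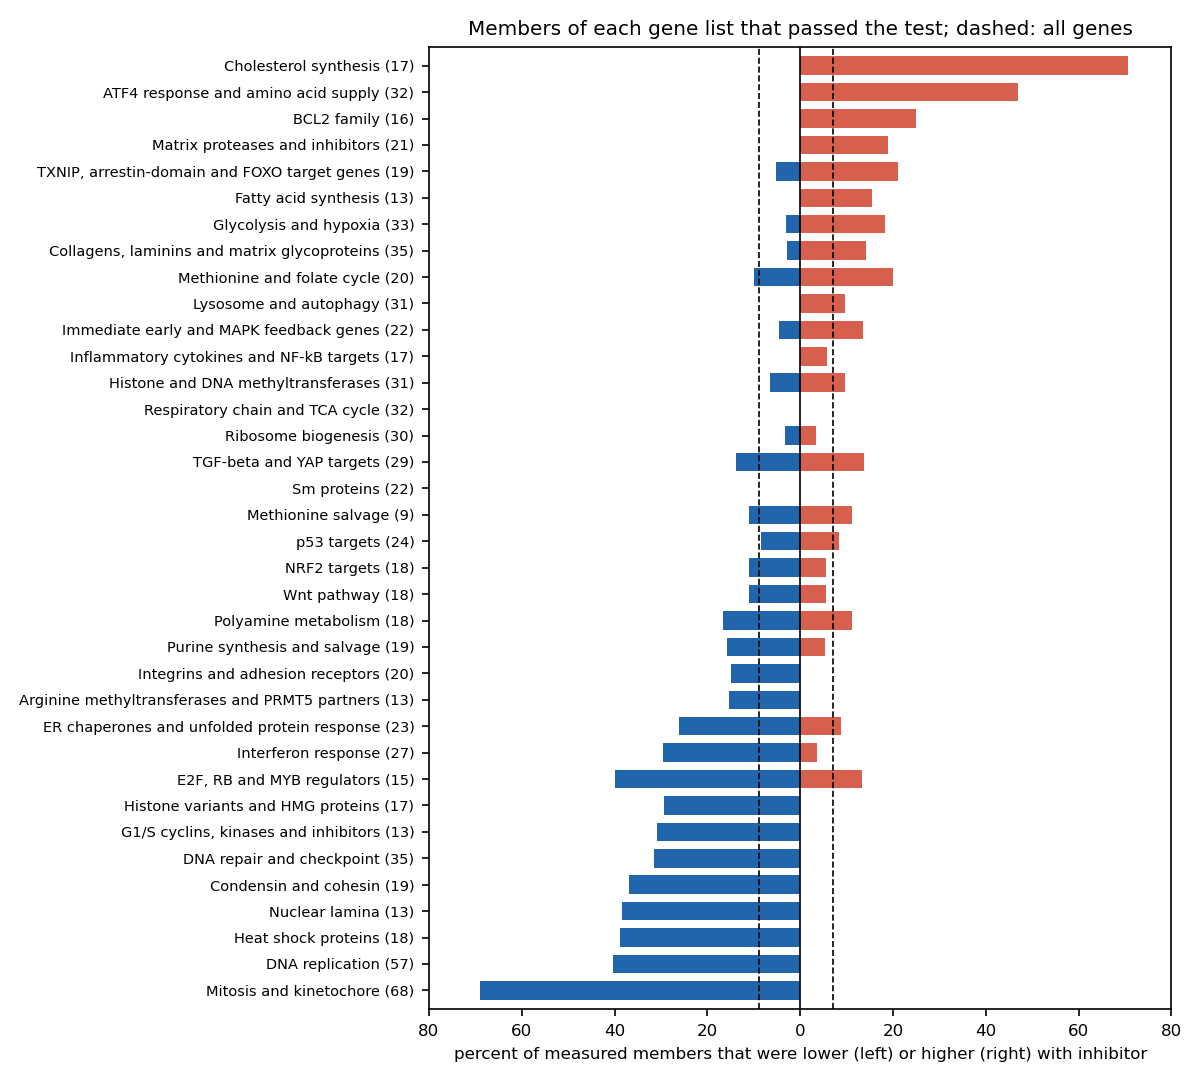
Share of the measured members of each gene list that were lower (left, blue) or higher (right, red) with inhibitor at an adjusted p below 0.05, in percent, with the number measured in parentheses. Dashed lines mark the shares over all genes, 8.88% lower and 7.08% higher; mitosis genes reach 69.1% on the left and cholesterol synthesis genes 70.6% on the right.

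Counts for the lists that follow stand beside 7.08% higher and 8.88% lower over all genes. Some calls of a single member in a list were lost without 1 array. Those of NRF2 targets, ribosome biogenesis and interferon response (all higher) and of glycolysis (lower) were 0 without any 1 of the 6 arrays. Those of ribosome biogenesis (lower) and purine synthesis (higher) were 0 without untreated array 1 or 2 or any 1 of the inhibitor arrays. The glycolysis call was also 0 without MTAP-negative array 1 or 3, and that of purine synthesis without MTAP-negative array 1. The single calls of collagens, methionine salvage and TXNIP-related genes (all lower) were 0 without untreated array 1 or 3 or inhibitor array 1 or 3. That of TXNIP-related genes was also 0 without inhibitor array 2.

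The pathway of the enzyme itself changed little as a group. Methionine salvage had 1 of 9 measured members higher and 1 lower (11.1% each), near the shares of all genes. KYAT1, an aminotransferase that can make methionine from its keto acid, rose from 7.86, 7.76 and 8.12 to 8.78, 8.88 and 8.98 (0.97 ± 0.10, 1.95-fold, adjusted p = 0.00297). ADI1, the dioxygenase of the step before, fell by 0.51 ± 0.10, but did not pass without untreated array 1 or 3 or inhibitor array 1 or 3 (adjusted p up to 0.0865). GOT2, another aminotransferase, changed by 0.13 ± 0.11 and did not pass.

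Polyamine synthesis, which makes the substrate of MTAP, had 2 of 18 genes higher and 3 lower. The lower genes were AZIN1, which protects ornithine decarboxylase from its antizyme (10.16, 10.26 and 10.09 without and 9.41, 9.56 and 9.29 with inhibitor, -0.75 ± 0.10, adjusted p = 0.00476), the antizyme OAZ2 (-0.59 ± 0.11) and spermidine synthase SRM (-0.52 ± 0.11). OAZ2 did not pass without untreated array 1 or inhibitor array 1 or 3 (adjusted p up to 0.0855), and SRM without untreated array 1 or 2 or any 1 of the inhibitor arrays (up to 0.112). Ornithine decarboxylase ODC1, the first enzyme of the pathway, read 12.54, 12.42 and 12.27 on untreated and 12.09, 12.09 and 12.04 on inhibitor arrays. These groups did not overlap, but the change of -0.33 ± 0.12 did not pass (adjusted p = 0.0882). It passed in the 6 arrays alone (0.0460) and without MTAP-negative array 2 (0.0444). The 2 higher genes were 0 without untreated array 1 or 2 or any 1 of the inhibitor arrays and 1 without untreated array 3. The 3 lower ones were 1 without untreated array 1 or inhibitor array 1 or 3, and 5 without MTAP-negative array 2.

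In purine synthesis and salvage, which takes up the adenine that MTAP releases, 1 of 19 genes rose and 3 fell. PNP, the phosphorylase that splits inosine and guanosine and is the closest relative of MTAP in the pathway, read 10.43, 10.24 and 10.07 on untreated and 9.94, 9.87 and 9.72 on inhibitor arrays (-0.40 ± 0.10, adjusted p = 0.0294). PRPS1, which makes the ribose donor PRPP, was lower by 0.45 ± 0.12 and adenylosuccinate lyase ADSL by 0.38 ± 0.10, while the AMP deaminase AMPD3 was higher by 0.44 ± 0.11. The 3 lower genes were 0 without any 1 of the 6 arrays and 2 without MTAP-negative array 1. The abundant IMPDH2, which commits purines to guanine nucleotides, changed by -0.15 ± 0.09 (adjusted p = 0.269). Of 13 arginine methyltransferases and PRMT5 partners 2 fell and 0 rose (1 at an unadjusted p below 0.05). PRMT6, which methylates histone H3 on an arginine, read 8.79, 8.77 and 8.55 without and 7.83, 7.95 and 7.50 with inhibitor (-0.94 ± 0.11, 1.92-fold, adjusted p = 0.00353). CLNS1A, the partner that brings Sm proteins to PRMT5, changed by 0.20 ± 0.09 and did not pass. The 2 lower genes were 1 without untreated array 1, 2 or 3, inhibitor array 1 or 3 or MTAP-negative array 1. PRMT5 itself read 10.59, 10.07 and 10.36 on untreated and 10.44, 10.32 and 10.30 on inhibitor arrays. These groups overlapped, and the change of 0.01 ± 0.11 did not pass and turned sign without untreated array 2 or inhibitor array 2. Of 22 Sm and related spliceosome genes, some of whose proteins PRMT5 methylates, 0 passed in limma in either direction (1 higher and 3 lower at an unadjusted p below 0.05).

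CTH and CBS, the enzymes that make cysteine from homocysteine, both rose. The methionine and folate cycle list had 4 of 20 members higher and 2 lower. CTH, the last enzyme that makes cysteine from homocysteine, read 6.96, 6.86 and 6.98 on untreated and 8.13, 7.92 and 8.10 on inhibitor arrays, a rise of 1.12 ± 0.10 or 2.17-fold (adjusted p = 0.00207). CBS, the enzyme of the step before, rose from 8.51, 8.31 and 8.44 to 9.24, 9.26 and 9.37 (0.87 ± 0.10, adjusted p = 0.00321). In both genes the arrays of each group lay within a narrow range. SHMT2, which makes one-carbon units from serine in mitochondria, rose by 0.55 ± 0.09, but did not pass without untreated array 1 or inhibitor array 1 (adjusted p up to 0.0654). The 4 higher genes were 2 without untreated array 1 or inhibitor array 1. The 2 lower ones were 0 without untreated array 1 or 2 or any 1 of the inhibitor arrays, and 1 without untreated array 3 or MTAP-negative array 1.

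CTH is also a target of ATF4, the factor that cells make when amino acids are short. Of 32 genes of the ATF4 response and amino acid supply 15 (46.9%) rose and 0 fell (0 at an unadjusted p below 0.05), with a median change of 0.41. ASNS, asparagine synthetase, is shown because its promoter holds the known amino acid response element, here as CARE-like letters (TGATGNAA) in capitals, at chr7:97872379-97872558 on the minus strand of GRCh38.p14, from 150 bases before the start to 30 after.
ASNS: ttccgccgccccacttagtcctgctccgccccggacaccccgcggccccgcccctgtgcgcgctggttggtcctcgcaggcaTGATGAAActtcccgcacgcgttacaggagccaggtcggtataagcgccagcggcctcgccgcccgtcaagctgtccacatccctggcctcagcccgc

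ASNS read 10.52, 10.24 and 10.20 on untreated and 11.64, 11.60 and 11.75 on inhibitor arrays, a rise of 1.35 ± 0.11 or 2.54-fold (adjusted p = 0.00207). DDIT4, which restrains mTORC1, rose from 9.60, 9.40 and 9.47 to 10.37, 10.49 and 10.43 (0.94 ± 0.12, adjusted p = 0.00486). DDIT3, the stress factor CHOP, rose by 0.85 ± 0.14 and PHGDH, the first enzyme of serine synthesis, by 0.78 ± 0.13. DDIT3 did not pass without inhibitor array 2 (adjusted p = 0.0501) and PHGDH without inhibitor array 1 (0.0631). ATF4 itself, noted after its value was seen, rose by 0.52 ± 0.11, but passed in only part of the fits that left out 1 array (not without untreated array 1 or 2 or inhibitor array 1, 2 or 3, adjusted p up to 0.102). The abundant NARS1, asparaginyl-tRNA synthetase, changed by 0.25 ± 0.09 and did not pass (adjusted p = 0.0868). The count of 15 was 6, 9 and 9 without inhibitor array 1, 2 or 3. CARE-like letters were in 3.67% of all promoters and 1.69% of the genes tested, in 4 of 13 members that rose (30.8%) and in 5 of 15 that did not pass (33.3%).

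ATF4 targets are shared with the unfolded protein response, which was listed together with ER chaperones. Of 23 genes of this list 6 fell (26.1%) and 2 rose (8.70%). Its relation to the ATF4 list was not tested. CRELD2 fell by 0.77 ± 0.13, but did not pass without untreated array 1 or inhibitor array 1 (adjusted p up to 0.0663), and SDF2L1, a cofactor of the chaperone BiP, by 0.60 ± 0.09, but did not pass without inhibitor array 1 (0.0571). CANX, calnexin, changed by -0.12 ± 0.09 and did not pass. The 6 lower genes were 1, 3 and 4 without untreated array 1, 2 or 3 and 0, 3 and 2 without inhibitor array 1, 2 or 3, and the 2 higher ones were 0 or 1 without any 1 of the 6 arrays or MTAP-negative array 1. Heat shock proteins and their co-chaperones lay below 0 in 18 of 18 members. Of these 7 (38.9%) fell and 0 rose (0 at an unadjusted p below 0.05), beside 8.88% and 7.08% of all genes. Their median was -0.21, beside -0.02 over all genes. DNAJB6, a co-chaperone that keeps aggregating proteins soluble, read 9.50, 9.26 and 9.25 without and 8.26, 8.16 and 8.0 with inhibitor, a fall of 1.20 ± 0.11 or 2.30-fold (adjusted p = 0.00207). HSPA2, an HSP70 abundant in testis, fell by 0.80 ± 0.13. HSPH1, a nucleotide exchange factor of HSP70, fell by 0.61 ± 0.09 and DNAJA1 by 0.63 ± 0.09, and neither passed without inhibitor array 1 (adjusted p of 0.050 and 0.0516). HSP90AA1, the inducible HSP90, changed by -0.17 ± 0.09 and did not pass. The count of 7 was 4 without untreated array 1 or 2 or inhibitor array 2 or 3 and 2 without inhibitor array 1.

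Genes of cholesterol synthesis rose together. The pathway builds sterols from acetyl-CoA and is switched on by SREBP2 when sterols in the ER are low. Of 17 measured members 12 (70.6%) rose and 0 fell (1 at an unadjusted p below 0.05), with a median change of 0.73. HMGCS1, which makes HMG-CoA, read 7.52, 7.49 and 8.09 on untreated and 9.17, 8.67 and 9.07 on inhibitor arrays, a rise of 1.27 ± 0.17 or 2.41-fold (adjusted p = 0.00476). MSMO1, the sterol-C4 oxidase, rose from 9.14, 9.35 and 9.82 to 10.79, 10.59 and 10.75 (1.27 ± 0.16, 2.42-fold, adjusted p = 0.00413). The inhibitor arrays of MSMO1 lay close together, and the untreated ones were spread more widely. SREBF2, which encodes SREBP2, rose by 1.09 ± 0.17, but did not pass without inhibitor array 1 (adjusted p = 0.0530). DHCR7, the last reductase of the pathway, rose by 1.02 ± 0.19, but did not pass without untreated array 1 or 2 or inhibitor array 1 or 2 (up to 0.0705). SQLE, squalene epoxidase, noted after its value was seen, rose by 0.95 ± 0.11. LSS, which closes the sterol rings, changed by 0.27 ± 0.12 and did not pass (adjusted p = 0.161). The count of 12 was 7 without untreated array 1 and 4 without inhibitor array 1.

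Of 13 fatty acid synthesis genes 2 rose and 0 fell (0 at an unadjusted p below 0.05). SCD, the stearoyl-CoA desaturase, read 11.37, 11.08 and 11.50 without and 11.98, 11.88 and 12.22 with inhibitor (0.71 ± 0.10, adjusted p = 0.00658). Fatty acid synthase, FASN, read 10.31, 9.94 and 10.28 and 10.97, 10.84 and 10.93. These arrays did not overlap, but the SE was wide and the change did not pass (0.74 ± 0.38, adjusted p = 0.226). In the 6 arrays alone it passed (0.00701), as it did without MTAP-negative array 3 (0.0308). The count of 2 was 1 without any 1 of the 6 arrays or MTAP-negative array 1 and 4 without MTAP-negative array 2. Among 31 lysosome and autophagy genes 3 rose (9.68%, near the 7.08% of all genes) and 0 fell (3 at an unadjusted p below 0.05). NPC1, which exports cholesterol from lysosomes, rose by 0.69 ± 0.10, but did not pass without inhibitor array 1 (adjusted p = 0.0560), and WIPI1, a marker of autophagosome formation, by 0.91 ± 0.11. The count of 3 was 1 without inhibitor array 1.

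**Figure D3:**
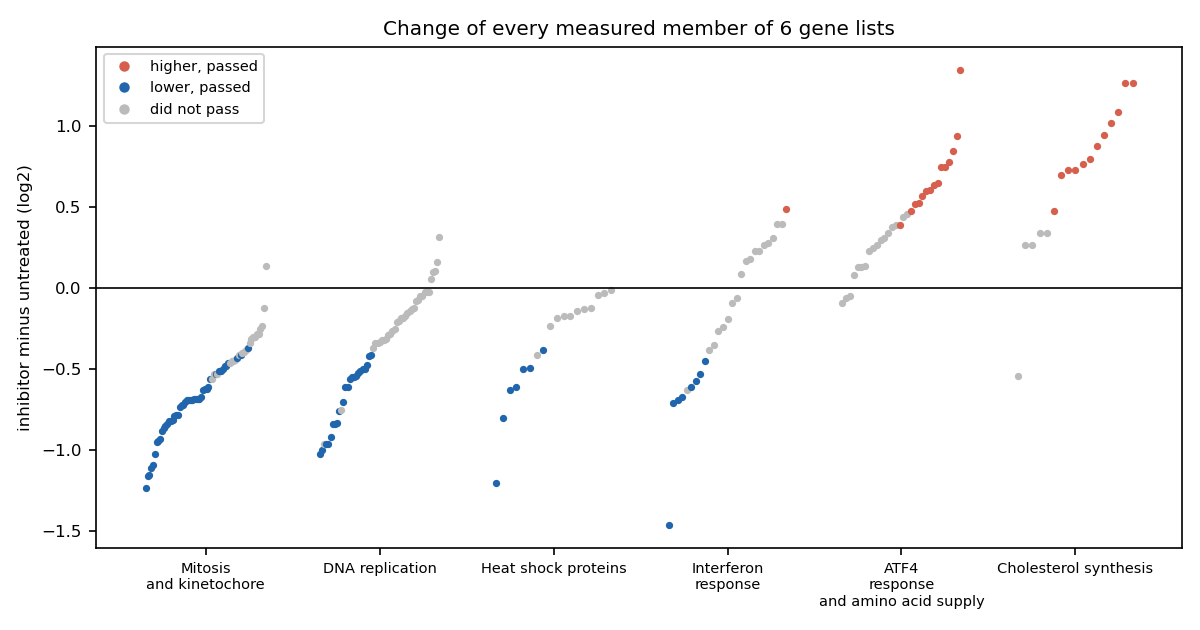
Change with inhibitor (inhibitor minus untreated, log2, vertical axis) of every measured member of 6 gene lists, in order of size within each list. Red and blue points passed at an adjusted p below 0.05 and grey ones did not; 67 of 68 mitosis genes and 18 of 18 heat shock genes lie below 0, and 16 of 17 cholesterol genes above it.

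TXNIP, which binds thioredoxin and holds back glucose uptake, was among the largest rises. It read 10.55, 10.34 and 11.36 on untreated and 12.32, 12.48 and 12.38 on inhibitor arrays (1.64 ± 0.20, 3.12-fold, adjusted p = 0.00413), and all 3 of its probe sets were higher. ARRDC4, a close relative that responds to the same glucose-sensing factor MondoA, had an untreated mean below 6.64 and was at least 1.25-fold higher. ARRDC4 reached 6.64 on the inhibitor arrays alone, so it could only appear as a rise. The list of TXNIP, arrestin-domain and FOXO target genes had 4 of 19 members higher and 1 lower. BCL6, a FOXO target and transcriptional repressor, rose by 0.71 ± 0.12, but did not pass without untreated array 1 or inhibitor array 1 or 2 (adjusted p up to 0.0728). The count of 4 was 2 without untreated array 1 or inhibitor array 1 or 2.

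Genes of glycolysis and hypoxia had 6 of 33 members higher and 1 lower. ALDOC, an aldolase, read 10.16, 10.21 and 10.04 without and 11.04, 11.16 and 11.13 with inhibitor, a rise of 0.98 ± 0.10 or 1.97-fold (adjusted p = 0.00297). NDRG1, a hypoxia and iron stress gene, rose by 0.80 ± 0.11. The housekeeping step GAPDH changed by -0.10 ± 0.09 and lactate dehydrogenase LDHA by -0.31 ± 0.09, and neither passed, although LDHA did in the 6 arrays alone (adjusted p = 0.0468). The count of 6 was 3 without untreated array 1. In the respiratory chain and TCA cycle 0 of 32 genes passed in limma in either direction (2 higher and 3 lower at an unadjusted p below 0.05), and in ribosome biogenesis 1 of 30 rose and 1 fell.

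More interferon-response genes fell than rose. Of 27 measured members 8 fell and 1 rose, with a median of -0.19. IFIT1, which binds viral RNA caps, fell most. Its promoter is shown with the ISRE-like letters (on either strand) in capitals, since the ISRE is the element through which interferon acts. It lies at chr10:89392473-89392652 on the plus strand of GRCh38.p14, from 150 bases before the start to 30 after.
IFIT1: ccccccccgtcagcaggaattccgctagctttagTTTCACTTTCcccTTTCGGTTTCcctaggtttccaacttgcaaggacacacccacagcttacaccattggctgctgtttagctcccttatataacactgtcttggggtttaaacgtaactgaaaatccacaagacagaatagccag

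IFIT1 read 7.89, 8.06 and 7.83 on untreated and 6.26, 6.69 and 6.45 on inhibitor arrays and was at least 2.43-fold lower (adjusted p = 0.00178). IFIT3 fell by 0.71 ± 0.11 and IFI35 by 0.69 ± 0.10, and neither passed without inhibitor array 1 (adjusted p of 0.0619 and 0.0515). ISG15, a ubiquitin-like modifier, fell by 0.67 ± 0.15, but did not pass without untreated array 1 or 3 or inhibitor array 1 or 3 (up to 0.124). The antigen presentation gene B2M changed by 0.09 ± 0.10 and the membrane protein IFITM3 by 0.23 ± 0.12, and neither passed. The 8 lower genes were 4 without untreated array 1 or 3 and 1, 4 and 3 without inhibitor array 1, 2 or 3. ISRE-like letters were in 3.65% of all promoters and 2.68% of the genes tested, in 4 of 7 members that fell (57.1%) and in 10 of 16 others (62.5%).

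Of 17 inflammatory cytokines and targets of NF-kB, 1 was higher (5.88%, near the 7.08% of all genes) and 0 were lower (2 at an unadjusted p below 0.05). IL1A, interleukin-1 alpha, read 6.92, 7.74 and 7.47 without and 8.18, 8.87 and 8.59 with inhibitor, a rise of 1.17 ± 0.13 or 2.25-fold (adjusted p = 0.00303). Its relative IL1B changed by 0.15 ± 0.10 and the chemokine CXCL8 by -0.28 ± 0.11, and neither passed.

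Some matrix genes rose, and no adhesion receptor passed as higher in its probe set of highest mean. Of 21 matrix proteases and inhibitors 4 rose and 0 fell (0 at an unadjusted p below 0.05). Besides MMP9, the aggrecanase relative ADAMTS6 rose from 9.12, 9.63 and 9.55 to 10.48, 10.32 and 10.40 (0.97 ± 0.14, adjusted p = 0.00677). Of the plasminogen activators, PLAU rose by 0.40 ± 0.10, but did not pass without any 1 of the 6 arrays (adjusted p up to 0.144). Among 35 collagens, laminins and matrix glycoproteins 5 rose and 1 fell. LAMB3, a chain of laminin-332, read 11.13, 10.58 and 11.18 on untreated and 11.76, 11.69 and 11.84 on inhibitor arrays (0.80 ± 0.13, adjusted p = 0.00827). LOX, which cross-links collagen, rose by 0.74 ± 0.12, but did not pass without inhibitor array 1 (0.0610). LOXL2 changed by 0.26 ± 0.09 and did not pass. The 4 proteases were 2 without untreated array 1 or 2 or any 1 of the inhibitor arrays. The 5 matrix genes were 2 without untreated array 1 or 2 or inhibitor array 1 or 2 and 3 without inhibitor array 3. Of 20 integrins and adhesion receptors 3 were lower and 0 higher (3 at an unadjusted p below 0.05). These were the syndecan SDC2, at least 1.58-fold lower, the cadherin CDH11 (-0.41 ± 0.11), and CD44 in 212063_at alone, while 7 other probe sets of CD44 passed as higher. SDC2 reached 6.64 on the untreated arrays alone, so it could only appear as a fall. The count of 3 was 1 without any 1 of the 6 arrays or MTAP-negative array 1.

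Signalling genes moved in both directions. TGF-beta and YAP targets had 4 of 29 members higher and 4 lower. INHBA, the subunit of activin A, rose from 7.23, 7.24 and 7.75 to 8.55, 8.65 and 9.01 (1.33 ± 0.15, 2.52-fold, adjusted p = 0.00346), and the YAP target CCN2, connective tissue growth factor, by 0.88 ± 0.10. ID3, an inhibitor of helix-loop-helix factors that BMP signals switch on, fell by 0.80 ± 0.12, but did not pass without inhibitor array 1 (adjusted p = 0.0577). The 4 higher genes were 2 without untreated array 1 or inhibitor array 1 or 2, and the 4 lower ones were 1 without untreated array 1 or 3 and 0 and 1 without inhibitor array 1 or 2. Of 22 immediate early and MAPK feedback genes 3 rose and 1 fell. MYC, the growth regulator, read 8.16, 8.24 and 8.10 without and 9.11, 9.27 and 9.18 with inhibitor, a rise of 1.02 ± 0.09 or 2.03-fold (adjusted p = 0.00207). DUSP5, a phosphatase of nuclear ERK, rose by 1.07 ± 0.13, and SPRED1, another brake on the pathway, fell by 0.73 ± 0.10. FOSL1 changed by 0.35 ± 0.12 and did not pass. In the Wnt pathway, of 18 genes, LEF1 rose (5.56%) and FZD1 and FZD7 fell (11.1%), near the 7.08% and 8.88% of all genes. LEF1 (0.55 ± 0.14) and FZD7 (-0.50 ± 0.09) each failed to pass without certain single arrays (adjusted p up to 0.163 and 0.0866; LEF1 without untreated array 1 or 2 or inhibitor array 1, 2 or 3 or MTAP-negative array 1; FZD7 without untreated array 1 or 3 or inhibitor array 1, 2 or 3). The 2 lower Wnt genes were 1 without untreated array 1 or 3 or any 1 of the inhibitor arrays.

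The BCL2 family, which sets the threshold for apoptosis, had 4 of 16 members higher and 0 lower (1 at an unadjusted p below 0.05). BCL2L11, the killer protein BIM, read 7.37, 7.21 and 8.64 on untreated and 9.20, 9.15 and 9.0 on inhibitor arrays. Untreated array 3 stood well above the other untreated arrays, so that the pairs rose by unequal amounts (1.38 ± 0.29, 2.59-fold, adjusted p = 0.0209). BCL2L11 did not pass without untreated array 1 or 2 or inhibitor array 1 or 2 (adjusted p up to 0.108). These values are those of 1558143_a_at. Of its other probe sets, 1553096_s_at passed with a smaller rise (0.47 ± 0.13). The changes of 1555372_at (1.31 ± 0.38, adjusted p = 0.0525) and 225606_at (0.50 ± 0.27, adjusted p = 0.238) did not pass. Without _x_at, _s_at and _a_at probe sets the gene did not pass (adjusted p = 0.215). BMF (0.56 ± 0.12), whose untreated mean of 6.24 lay below 6.64, BID (0.38 ± 0.09) and MCL1 (0.32 ± 0.09) also passed as higher. BMF reached 6.64 on the inhibitor arrays alone, so it could only appear as a rise. MCL1 passed in 200797_s_at only, and its other probe sets changed by -0.37, -0.57 and -0.26 without passing. The calls were not sorted by whether a member promotes or opposes apoptosis. The count of 4 was 0, 1 and 2 without untreated array 1, 2 or 3 and 0, 0 and 2 without inhibitor array 1, 2 or 3. NRF2 targets had 1 of 18 higher (5.56%) and 2 lower (11.1%), near the shares of all genes. NQO1, a quinone reductase, fell from 10.86, 10.46 and 10.49 to 10.05, 9.82 and 9.87 (-0.69 ± 0.10, adjusted p = 0.00560), and the abundant TXNRD1 changed by 0.09 ± 0.09 and did not pass. The 2 lower NRF2 targets were 1 without untreated array 1 or 2 or any 1 of the inhibitor arrays. Of 31 histone and DNA methyltransferases 3 rose (9.68%) and 2 fell (6.45%), near the shares of all genes (7.08% and 8.88%). DNMT3A, which sets new DNA methylation, rose by 0.67 ± 0.13, but did not pass without untreated array 2 or inhibitor array 1 or 2 (adjusted p up to 0.0765), and DNMT1, which copies it, changed by -0.32 ± 0.09 and did not pass. The 3 higher genes were 1, 0 and 2 without untreated array 1, 2 or 3 and 0, 0 and 2 without inhibitor array 1, 2 or 3, and the 2 lower ones were 0 without any 1 of the 6 arrays, 1 without MTAP-negative array 1 or 3 and 4 without MTAP-negative array 2.

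The choice of probe set decided the direction for a few genes, which were noted after their values were seen. Of 608 genes that passed and had several probe sets, 23 had another probe set that passed in the opposite direction. TMPO, LMNA, TFDP1, SGO2, AZIN1, IFIT3, ADAMTS6, SPRED1, SLC2A3, PLAU, BCL6 and EZH1 passed in 1 probe set only. Their other probe sets moved the same way without passing. OSMR read 8.88, 8.84 and 9.02 on untreated and 10.60, 10.56 and 10.81 on inhibitor arrays in 1554008_at, its probe set of highest mean (1.75 ± 0.13, adjusted p = 0.00178). Its other probe sets fell, 226621_at by 0.69 ± 0.14 and 205729_at by 0.82 ± 0.17. CD44, the hyaluronan receptor, fell by 0.35 ± 0.09 in 212063_at and rose in 7 others, by 0.47 ± 0.09 to 0.87 ± 0.10. With the mean of its probe sets CD44 was higher, and the call in 212063_at was lost without any 1 of the 6 arrays or MTAP-negative array 1 (adjusted p up to 0.191). HMGA2, a chromatin protein of embryonic and tumour cells, fell by 0.42 ± 0.09 in 208025_s_at and rose by 1.56 ± 0.09 in 1558683_a_at, whose untreated mean of 6.38 lay below 6.64. The call of HMGA2 in 208025_s_at was lost without any 1 of the 6 arrays (up to 0.137). These probe sets may read different transcripts of a gene, and the sources used here do not map them, so CD44 and HMGA2 are given no direction, and the rise of OSMR is that of 1554008_at only.

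**Figure D4:**
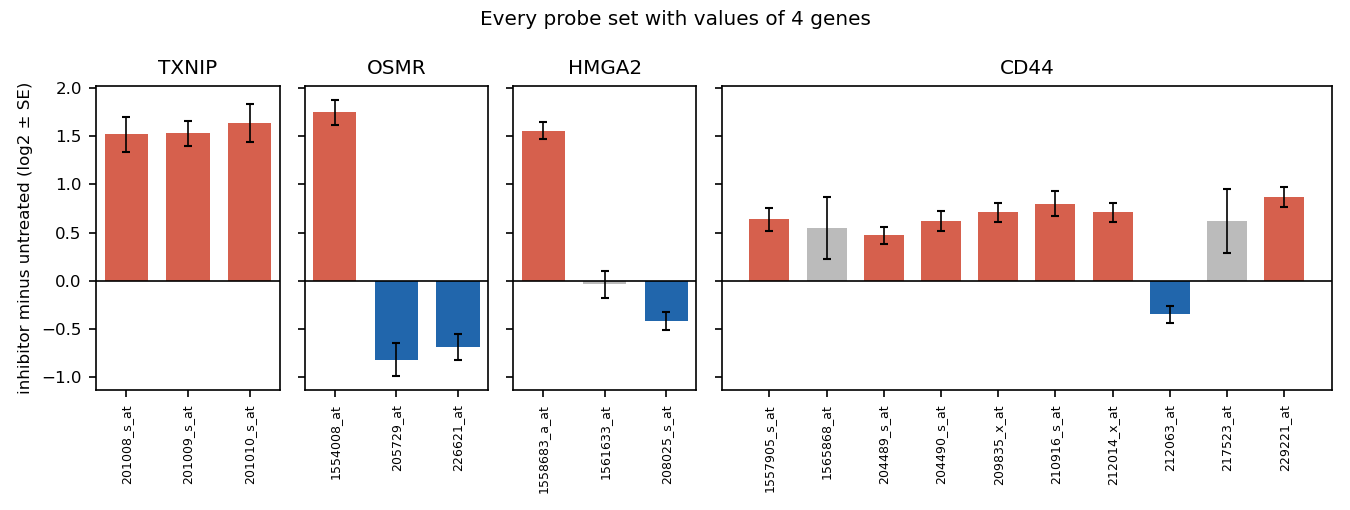
Change with inhibitor (log2, vertical axis; bars, error bars are SE) of each probe set with values of TXNIP, OSMR, HMGA2 and CD44. Red bars passed as higher, blue bars as lower, and grey bars did not pass; the 3 probe sets of TXNIP are all higher, and the other genes have probe sets on both sides of 0.

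The levels of the same genes in MTAP-negative cells are given beside the inhibitor values. Both contrasts use the untreated MTAP-positive arrays, so a high untreated value pushes them in opposite ways, and no overlap or correlation is drawn. Between MTAP-positive and MTAP-negative cells 2041 genes (21.6%) passed, 1259 higher (13.3%) and 782 lower (8.27%) in MTAP-positive cells. RNA quality by both control genes was lowest on MTAP-negative array 3, and its part in this contrast was not tested. Among genes that rose with inhibitor, PAEP averaged 4.96 in MTAP-negative, 7.28 in untreated MTAP-positive and 9.48 in inhibitor-treated cells, so that the inhibitor value lay farther from the MTAP-negative one. TXNIP (8.64, 10.75 and 12.39), ALDOC (8.03, 10.14 and 11.11), NDRG1 (10.33, 11.32 and 12.12) and DDIT4 (8.10, 9.49 and 10.43) had the same order. Among lower genes, CCNE2 (8.56, 7.86 and 6.48) and CDC25A (9.06, 8.29 and 7.80) also moved farther from the MTAP-negative level. HMGN3 (9.62, 8.71 and 8.11), MCM10 (9.51, 8.92 and 7.96) and RAD54B (8.39, 7.94 and 7.07) did so too. In the fit, these lower genes were already lower in untreated MTAP-positive than in MTAP-negative cells (adjusted p of 0.00470, 0.00354, 0.00182, 0.0294 and 0.0321). The genes of each pattern are examples, and the patterns were not counted. The inhibitor value lay nearer the MTAP-negative one in SUSD1 (8.13, 6.82 and 8.42), ADAMTS6 (11.18, 9.43 and 10.40), CCN2 (11.04, 10.27 and 11.15) and, among lower genes, LYZ (4.89, 7.35 and 5.68) and SDC2 (6.27, 7.31 and 6.28). In LYZ and SDC2 both the MTAP-negative and the inhibitor mean lay below 6.64, and only the untreated mean lay above it. Their nearness is therefore not read as a likeness of these groups. In a further set MTAP-negative and untreated MTAP-positive cells were close and only the inhibitor group stood apart. These were APLN (7.24, 7.26 and 8.87), ASNS (10.59, 10.32 and 11.66), H2AX (11.61, 11.60 and 10.33), NCAPG (9.51, 9.45 and 8.19) and DNAJB6 (9.36, 9.34 and 8.14). For these 5 genes the change between MTAP-positive and MTAP-negative cells did not pass (adjusted p of 0.932, 0.116, 0.953, 0.745 and 0.926).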

How the data were processed

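Expression was measured on Affymetrix U133 Plus 2.0 arrays of RNA from 3 samples per group. The deposited table holds log2 values that the authors computed with RMA, per the submitters' processing notes (version not given in the sources used here). Of 54675 probe sets listed, 37201 hold no value, and each of the other 17474 reaches 6.64 (a linear value of 100) on at least 3 arrays. The 8 control probe sets were left out. Probe sets were named through the platform annotation: 15485 had 1 gene symbol, 841 several and 1140 none, and the last 2 kinds are unnamed here.

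All 9 arrays were fitted with limma 3.58.1 (R 4.3.3; lmFit and eBayes), with group and replicate number as terms and 4 residual degrees of freedom, and p-values were adjusted over 17466 probe sets (Benjamini-Hochberg, threshold 0.05). The numbers were taken to pair the arrays because deviations from the group means correlated between same-numbered untreated and inhibitor arrays (0.702, 0.594 and 0.321 for numbers 1, 2 and 3, above 0.1 in each). This check did not cover the MTAP-negative arrays, which the fit placed in the same numbered blocks. With the block and the 6 arrays alone, 2069 genes passed. Depth in the sense of counts does not apply to arrays; their number limits the precision.

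Genes named by rule were MTAP, the 12 largest rises and 12 largest falls whose groups did not overlap and whose 3 pairs moved the same way, and, per list with at least 1 call, up to 4 members that passed with the largest change and up to 2 others of highest mean. The 36 gene lists, the 6 marker lists and the comparison itself were chosen with earlier results of these data known. Promoters come from RefSeq (GRCh38.p14). Alternatives covered the replicate block, the arrays used, scaling, filters, the probe set rule, weights, RNA quality and leaving out arrays.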

Additional observations from a re-analysis of the deposited data

How the results depend on the processing

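The paired design gave 1508 genes (669 higher, 839 lower). With no replicate block 1000 genes passed (438 higher, 562 lower), 992 of them among the 1508, so the pairing adds calls. With the ACTB 5' minus 3' difference as a covariate 940 passed (411 higher, 529 lower), and with array weights 3468 (1525 higher, 1943 lower). Leaving out 1 array or 1 replicate number gave 0 to 1903 genes in all, 0 to 839 higher and 0 to 1064 lower; the 0 came without replicate number 1, where the lowest adjusted p was 0.0768. The other settings (the 6 arrays alone, both scalings, both filters, both probe set rules, no _x_at, _s_at and _a_at probe sets, a trended and robust prior) stayed within 1.5 times the count. All 1508 genes kept their direction in each fit on the same probe sets, which follows largely from the agreement of their numbered pairs. With the mean of probe sets 1498 of 1508 did, and without _x_at, _s_at and _a_at probe sets 1063 of 1084. The share of lower among all calls was 55.6%, and 49.5% after centring arrays on their medians, 50.8% after renewed quantile normalisation, 64.9% without untreated array 2 and 47.0% without untreated array 3.

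The MTAP change of -0.38 passed in the 6 arrays alone and without MTAP-negative array 3 (again -0.38 in each), and ran from -0.57 to -0.24 over all such left-out fits. Of 122 named genes that passed, 68 passed without any 1 of the 9 arrays and 112 without the replicate block. Direction turned in CD44 (0.56) and HMGA2 (0.37) with the mean of probe sets, and in TPM2 without _x_at, _s_at and _a_at probe sets (0.34, which did not pass). Of 36 named genes besides MTAP that did not pass, 17 passed under at least 1 alternative and 5 in the 6 arrays alone. It also turned, without passing, in MCM2 (0.00 without untreated array 2), MCM3 (0.07 without inhibitor array 3 or replicate number 3), MCM6 (0.02 without inhibitor array 3) and PRMT5 (-0.02 with the mean of probe sets, -0.07 with array weights, -0.09 without untreated array 2, -0.06 without inhibitor array 2 and -0.10 without replicate number 2). Over the fits that left out an array or a number, the changes ran from -0.27 to 0.00 in MCM2, from -0.29 to 0.07 in MCM3, from -0.14 to 0.02 in MCM6 and from -0.10 to 0.10 in PRMT5. The cause of these shifts was not tested. Signals near 6.64, where 131 of the 1508 genes have a group mean below it, give bounds only.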

Other observations

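Further genes that passed and were not described above belong to the same groups. In the Fanconi anaemia pathway, which repairs crosslinked DNA, FANCG read 9.73, 9.27 and 9.32 on untreated and 8.89, 8.71 and 8.69 on inhibitor arrays (-0.68 ± 0.12, adjusted p = 0.0106). FANCI fell by 0.81 ± 0.10 in its probe set of highest mean and by 0.43 in another, and rose by 0.38 in 223785_at (adjusted p = 0.0371). The ER stress-induced secreted factor MANF fell by 0.65 ± 0.12, and the BiP co-chaperone DNAJB11 by 0.52 ± 0.10. ID2, a relative of ID3, read 8.31, 8.01 and 7.90 without and 7.40, 7.26 and 7.15 with inhibitor, and these groups did not overlap (-0.80 ± 0.17, adjusted p = 0.0190).

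Among genes that rose, the glucose transporter SLC2A3 read 8.97, 8.64 and 8.95 on untreated and 9.80, 9.49 and 9.64 on inhibitor arrays (0.79 ± 0.14, adjusted p = 0.0129), and P4HA1, a subunit of the enzyme that hydroxylates collagen prolines, 9.18, 9.12 and 9.15 and 9.61, 10.08 and 9.77 (0.67 ± 0.13, adjusted p = 0.0156). NID1, the basement membrane linker nidogen, rose by 0.69 ± 0.14. Of the polycomb methyltransferases, EZH1 rose by 0.56 ± 0.11 and EZH2, the form of dividing cells, fell by 0.47 ± 0.11. All of these genes but FANCI failed to pass without untreated array 1, and each also without at least 2 single inhibitor arrays in turn (adjusted p up to 0.149, for EZH2).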
